A study of Mus musculus with 12 samples.

Results

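Igf2bp1, Igf2bp2, Igf2bp3, Lin28a, Lin28b and Hmga2 are 6 genes that are active in the embryo and in many tumours. Apart from Igf2bp2, which stays expressed, they are mostly silent in adult tissue. All 6 were described here in the histone-mark peak lists of a pair of mouse melanoma lines. The 6 were chosen by name out of 21887 protein-coding genes, as a family picked because Igf2bp3 had more H3K4me3 in the mutant line, so the H3K4me3 values of that gene are a description. All 6 symbols were found in the gene table. In line 971 Kmt2d is wild type (WT), and line 493 carries a Kmt2d mutation that the labels do not specify. Both were cultured in serum-containing DMEM/F12 medium with antibiotics and were profiled by chromatin immunoprecipitation and sequencing with Abcam antibodies. The Kmt2d protein is an enhancer-associated histone methyltransferase that deposits H3K4me1. Each line and mark had a single library, so no difference has a replicate check, and Kmt2d genotype and cell line cannot be told apart. The labels give neither the origin of the lines nor whether a line is 1 clone.

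The IGF2BP proteins bind messenger RNAs in the cytoplasm and protect them from decay, LIN28A and LIN28B bind the precursors of let-7 microRNAs and block their maturation, and HMGA2 is a small architectural protein that bends AT-rich DNA. They form one circuit, because the messenger RNAs of all these genes are among the known targets of let-7 and LIN28 keeps let-7 low. H3K4me3 marks active and poised promoters, H3K27ac active promoters and enhancers, H3K4me1 enhancers, and H3K27me3 the domains silenced by Polycomb. A promoter that carries H3K4me3 and H3K27me3 together is called bivalent and is usually silent but inducible. A peak list says where a mark was called and gives neither RNA nor protein.

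The WT lists held 23154 H3K4me3, 26415 H3K27ac, 17373 H3K4me1 and 25394 H3K27me3 peaks, and the mutant lists 17987, 18751 and 3649 for the first 3 marks. The mutant H3K27me3 list held 1300 regions and is named as called against the WT library, so it would show regions higher in the mutant line and was read on its own. Of 7 melanocyte marker genes, Mitf and Pmel carried gene-end H3K4me3 in both lines, Sox10 and Mlana had it in the mutant line alone, and Tyr, Tyrp1 and Dct had it in neither. Tyr, which encodes the key pigment enzyme, had 0 kb in its window in both. A gene-end peak lay at 3 of 5 fibroblast markers in the WT and 2 in the mutant line, 0 and 2 of 4 keratinocyte markers, 1 of 3 endothelial markers in each line, and none of the 3 immune markers in either. Each count rests on 1 library per line, and whether the lines differ in cell type was not tested. What part these marker differences have in the results on the 6 genes was not tested either.

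The promoter sequences of 4 members are shown because their marks differed most in kind. RefSeq promoter windows of GRCm38.p6, the assembly of mm10, run from 250 bases before to 50 bases after a start site and were found for 5 members, Igf2bp1 having no entry. All 5 lie on the minus strand. The sequences read 5′ to 3′ and capitals mark CG dinucleotides, the sequence feature that CpG-island promoters are rich in. The windows are chr16:22163250-22163549 for Igf2bp2, chr6:49214905-49215204 for Igf2bp3, chr4:134018767-134019066 for Lin28a and chr10:45470152-45470451 for Lin28b.
Igf2bp2: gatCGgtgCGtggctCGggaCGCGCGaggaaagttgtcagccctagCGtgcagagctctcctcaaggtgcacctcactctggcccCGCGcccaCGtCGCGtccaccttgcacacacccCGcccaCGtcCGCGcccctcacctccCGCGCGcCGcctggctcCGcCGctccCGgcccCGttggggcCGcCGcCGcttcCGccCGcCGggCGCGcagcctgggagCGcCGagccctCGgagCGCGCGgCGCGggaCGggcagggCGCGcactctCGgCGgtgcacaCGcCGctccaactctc
Igf2bp3: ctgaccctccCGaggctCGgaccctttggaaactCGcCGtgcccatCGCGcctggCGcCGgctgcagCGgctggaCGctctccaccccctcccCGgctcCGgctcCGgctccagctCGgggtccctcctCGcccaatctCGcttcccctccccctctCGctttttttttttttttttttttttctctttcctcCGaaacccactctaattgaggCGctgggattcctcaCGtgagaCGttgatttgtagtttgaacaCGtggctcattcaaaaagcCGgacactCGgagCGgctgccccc
Lin28a: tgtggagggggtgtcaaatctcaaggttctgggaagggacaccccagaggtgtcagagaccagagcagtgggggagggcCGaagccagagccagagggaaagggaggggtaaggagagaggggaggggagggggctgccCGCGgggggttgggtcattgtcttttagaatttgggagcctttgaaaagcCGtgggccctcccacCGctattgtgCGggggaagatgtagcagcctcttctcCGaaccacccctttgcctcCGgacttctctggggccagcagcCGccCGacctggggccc
Lin28b: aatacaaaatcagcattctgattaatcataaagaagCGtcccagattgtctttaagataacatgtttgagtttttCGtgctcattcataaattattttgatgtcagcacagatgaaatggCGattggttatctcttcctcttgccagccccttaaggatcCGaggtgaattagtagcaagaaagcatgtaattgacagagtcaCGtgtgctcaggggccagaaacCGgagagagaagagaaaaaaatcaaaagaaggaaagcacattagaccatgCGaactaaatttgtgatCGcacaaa

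The Igf2bp2 window held 47 CG dinucleotides, more than 98.6% of the 32851 windows in the table. That of Igf2bp3 held 25 and that of Hmga2 12, while Lin28a had 10 and Lin28b 8, close to the median of 7. The E-box CACGTG, a palindrome that reads the same on both strands and contains a CG, was searched in each window. It occurred at 2 places in the Igf2bp3 window, the first starting 23 bases before and the second 6 bases after the start site, and at 1 place in the Lin28b window, starting 49 bases before the start site. None was found in the other 3. Of all windows 7.15% held at least 1 and 0.59% at least 2. The GC box GGGCGG, searched on both strands and not overlapping the E-box, occurred at 2 places in the Igf2bp2 window, at 1 in Lin28a and in Hmga2, and in neither Igf2bp3 nor Lin28b, and 35.7% of all windows held it. In the mutant line H3K4me3 covered the whole Igf2bp3 window and in the WT line none of it, although WT H3K27me3 covered all 300 bases. At Igf2bp2 and Hmga2 the whole window was under H3K4me3 in both lines. At Lin28a no H3K4me3 peak touched the window and WT H3K27me3 covered 275 bases of it. The Lin28b window had 107 bases under WT H3K4me3 and none under mutant H3K4me3.

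Igf2bp3 (chromosome 6, 49085218 to 49215469), the IMP3 marker of human tumour pathology, had a weak WT and a stronger mutant H3K4me3 peak at its start. The WT peak was 759 bp wide (49213793 to 49214551), had a deposited score of 94.3, and lay inside the gene, 403 bp from the RefSeq start and 918 bp from the upper gene end. In the mutant line a peak of 2559 bp (49213192 to 49215750, score 872) ran across both, and another of 969 bp (49217312 to 49218280, score 113) lay upstream. That score grows with the significance of a peak and is ranked within a list here. Within 5 kb of the gene ends H3K4me3 therefore covered 0.759 kb in the WT line against 3.53 kb in the mutant line. A ratio of at least 1.5-fold in that direction was found for 5.78% of the genes with H3K4me3 there. Igf2bp3 was chosen for this mark, so nothing is read from its place among them.

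The start of Igf2bp3 lay in a Polycomb domain in the WT line. A series of 15 WT H3K27me3 peaks spanned 26.8 kb (49204852 to 49231646) and covered 18.4 kb of it. The mutant H3K4me3 peak at the start overlapped WT H3K27me3 over 2.23 kb and the upstream peak over 0.934 kb, and the WT H3K4me3 peak was overlapped along all of its 0.759 kb. No region of higher H3K27me3 in the mutant line lay within 50 kb, and the nearest was 209 kb away. Whether H3K27me3 itself was lower in the mutant line cannot be read from these lists. No H3K27ac or H3K4me1 peak lay within 5 kb of the Igf2bp3 ends in either line. The active marks inside the gene sat near 118 kb from the upper end, in a stretch that the gene model of Malsu1 (49073795 to 49139144) shares. There the WT line had an H3K4me3 peak of 985 bp and an H3K27ac peak of 128 bp. The mutant line had an H3K4me3 peak of 401 bp, H3K27ac peaks of 115 bp and 165 bp, and an H3K4me1 peak of 200 bp.

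**Figure D1:**
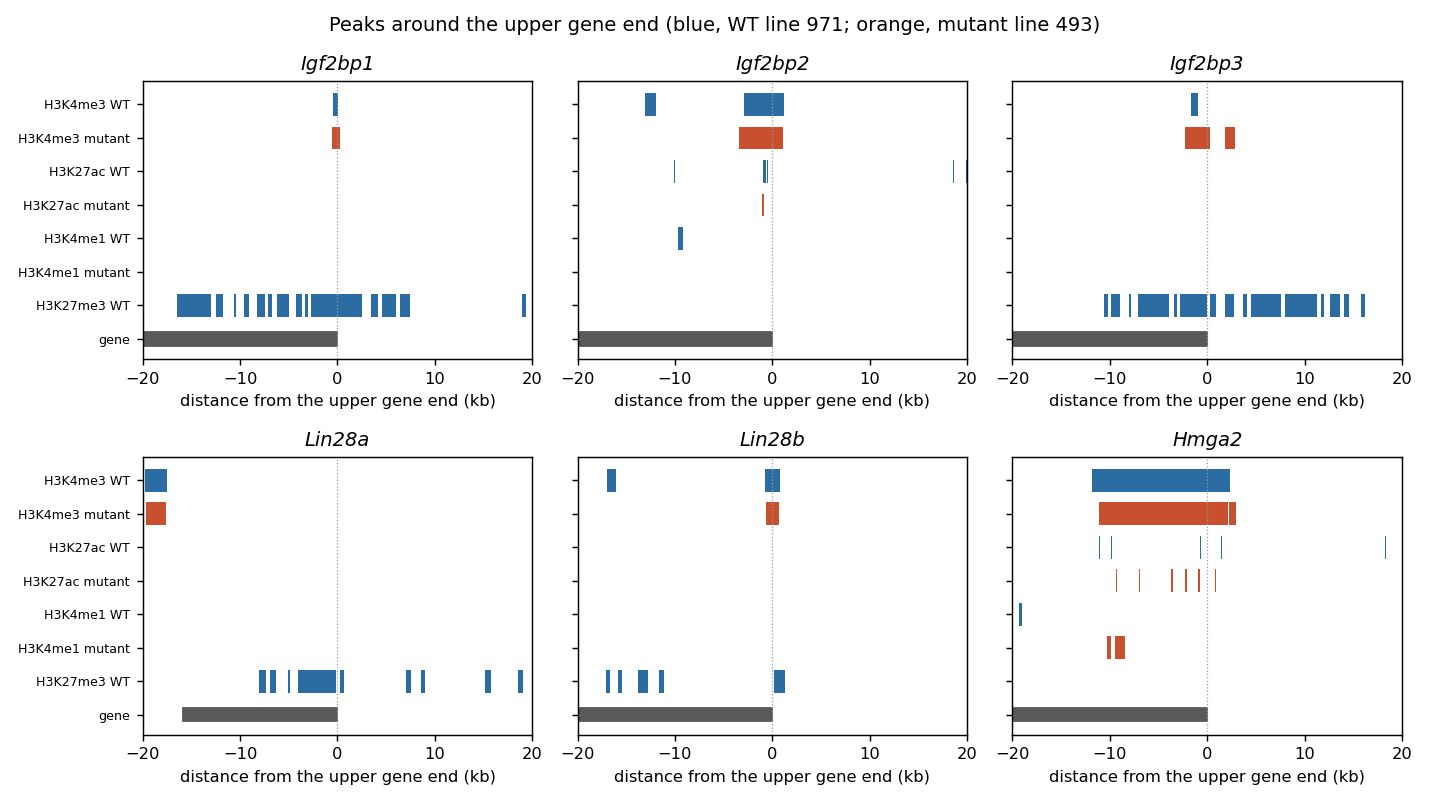
Peaks within 20 kb of the upper gene end of each member, with distance in kb on the x axis, the gene body to the left of 0 as a grey bar, blue bars for WT line 971 and orange bars for mutant line 493; the shortest peaks are drawn at a minimum width. Igf2bp3 has a mutant H3K4me3 peak of 2559 bp across its end inside WT H3K27me3, Lin28a has H3K27me3 and no H3K4me3 at its end, and Hmga2 has a domain of over 13 kb in both lines.

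Most of the H3K4me3 difference around Igf2bp3 in the wider window belonged to a neighbour. In windows reaching 50 kb to each side of the gene ends, peaks covered 8.94 kb in line 971 and 14.2 kb in line 493, a difference of 5.29 kb. Gpnmb, the gene of a melanosome glycoprotein, lies on the far side of the lower end of Igf2bp3. Its H3K4me3 peak was 1.02 kb wide in line 971 and 4.38 kb (4375 bp) in line 493, and made up 63.4% of that difference. The peak at the Igf2bp3 start made up 34% and the upstream peak 18.3%, while the peaks inside the gene and at Malsu1, which were narrower in the mutant line, took off 11% and 5.40%. Tra2a, a splicing regulator gene, had 3.30 kb and 3.33 kb. Without peaks at the ends of other genes the difference was 2.19 kb, and within 20 kb it was 1.90 kb.

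**Figure D2:**
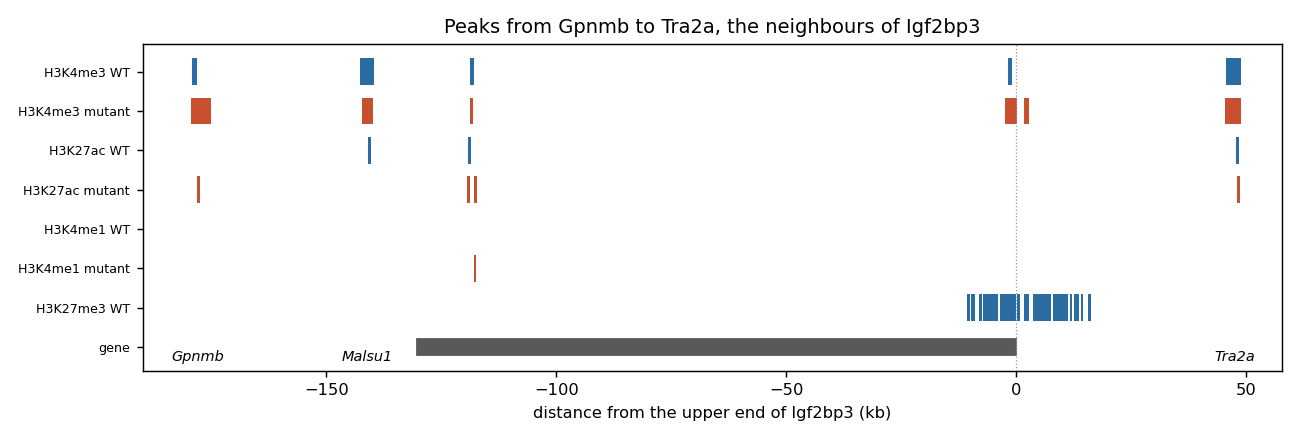
Peaks of both lines from Gpnmb to Tra2a, plotted by distance in kb from the upper end of Igf2bp3, whose body is the grey bar; blue is WT line 971, orange mutant line 493, and the shortest peaks are drawn at a minimum width. The mutant H3K4me3 peak at Gpnmb (4.38 kb against 1.02 kb) is the widest difference in the window, followed by that at the Igf2bp3 end.

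**Figure D3:**
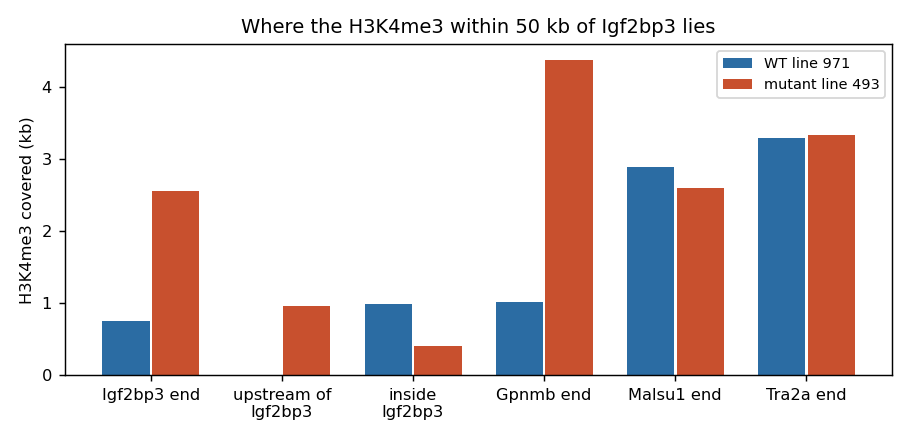
H3K4me3 covered length in kb within 50 kb of the Igf2bp3 ends, split by where the peaks lie, for WT line 971 (blue) and mutant line 493 (orange), 1 library each. Only the Igf2bp3 end, the stretch upstream of it, Gpnmb and, by 0.037 kb, Tra2a had more in the mutant line.

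Igf2bp1 (chromosome 11, 95957163 to 96005944), the paralogue first known for guiding beta-actin messenger RNA, had the most H3K27me3 of the 6 genes in the 50 kb windows. WT H3K27me3 peaks numbered 29 and covered 30.4 kb within 50 kb, of which 5.80 kb lay at the end of B4galnt2 and 1.02 kb at Gip. Within 5 kb of the gene ends H3K27me3 covered 7.36 kb, against 6.65 kb at Igf2bp3. A peak of 5.18 kb lay over the upper gene end. Inside that peak lay a weak H3K4me3 peak in both lines, of 472 bp and score 77.9 in the WT and 801 bp and score 123 in the mutant line. Within 50 kb H3K4me3 covered 2.94 kb and 3.09 kb, of which the Snf8 promoter held 2.46 kb and 2.29 kb. The 3 WT H3K27ac peaks covered 0.364 kb and the single mutant peak 0.089 kb, all of them 28.6 kb or more beyond the upper end and 2 of the WT peaks at Snf8. No H3K4me1 peak was called in either line.

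The WT H3K4me3 peaks at Igf2bp1 and Igf2bp3 were close to the limit of the list. When the WT list was cut to the 17987 strongest peaks, the length of the mutant list, its lowest score was 109 and both peaks were lost, so both genes then had gene-end H3K4me3 only in line 493. In the more significant 50% of each list neither gene had gene-end H3K4me3 in either line.

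Igf2bp2 (chromosome 16, 22059009 to 22163299), the family member that stays expressed in adult tissue, was the opposite case, with an active promoter in both lines and no H3K27me3 within 50 kb. The H3K4me3 peak over its start was 4.12 kb wide in line 971 and 4.53 kb in line 493, each with the score of 3100 at which many strong peaks of both lists stand. H3K27ac lay next to the start in both lines, as peaks of 270 bp and 92 bp in the WT and 1 of 181 bp in the mutant line. The clearest difference was in the gene body. There the WT line had 5 H3K4me1 peaks that covered 2.12 kb. The one nearest to the start, 9.21 kb inside, was flanked by an H3K27ac peak of 128 bp and an H3K4me3 peak of 1.15 kb (22150215 to 22151367). The mutant line had no H3K4me1 peak there and 1 H3K27ac peak of 198 bp elsewhere in the body. Over the whole window H3K27ac covered 0.958 kb and 0.477 kb, 2.01-fold more in the WT line.

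Lin28a (chromosome 4, 134003330 to 134019196), the LIN28 gene of embryonic stem cells, had no H3K4me3 at a gene end in either line. WT H3K27me3 covered 10.7 kb within 50 kb, with its widest peak, 3.86 kb (134015181 to 134019041), over the RefSeq start. The H3K4me3 in the window, 5.41 kb against 5.18 kb from WT to mutant, lay entirely at the ends of Dhdds and Hmgn2. The same held for H3K27ac, with 0.153 kb and 0.096 kb at Hmgn2.

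Lin28b (chromosome 10, 45376617 to 45486314), the paralogue most often reactivated in human tumours, had an H3K4me3 peak at its upper gene end in both lines. It was 1.58 kb wide in the WT line, with a score of 595 that exceeded 49.2% of that list, and 1.36 kb in the mutant line, with a score of 305 that exceeded 28.9%, and WT H3K27me3 overlapped 0.659 kb and 0.553 kb of it. A further WT peak of 924 bp and score 117 (45469335 to 45470258) covered the RefSeq start site, which lies 16.1 kb inside the gene, and no mutant peak lay there. H3K27me3 was called there too, with 0.356 kb of overlap. A single WT H3K27ac peak of 0.088 kb lay 33.4 kb beyond the lower gene end, toward Bves, the mutant line had none, and H3K4me1 was called in neither.

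Hmga2 (chromosome 10, 120361268 to 120476469) had one of the broadest H3K4me3 domains of either line. It was 14.1 kb wide in line 971 (120464673 to 120478773) and 13.3 kb in line 493 (120465334 to 120478639), and each was rank 11 from the widest in its list. The domain reached from upstream of the start into the first part of the gene, with no H3K27me3 within 5 kb. Within it H3K27ac peaks numbered 4 and covered 0.510 kb in line 971, and numbered 6 and covered 0.812 kb in line 493. H3K4me1 covered 0 kb and 1.42 kb of it. Farther inside the gene the WT line alone had H3K4me3 peaks. There were 5 of them, all weak, and 2 (1221 bp and 675 bp) lay within 50 kb of the start, the first 47.3 kb from it. The other 3 lay 50.2 kb or more from the start and so just outside the window. H3K4me1 inside the gene but outside the domain was likewise called in the WT line alone, with 0.787 kb in the 50 kb windows. H3K27ac peaks there lay 20.7 kb to 58.2 kb from the start in the mutant line and 64.8 kb and 92.9 kb from it in the WT line.

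Hmga2 was the only member with more H3K27ac in the mutant line in the 50 kb windows, 0.762 kb against 1.10 kb, and this direction held in each alternative that was run. It lies on the part of chromosome 10 from 80 Mb onward. There the mutant line had 117.5 H3K27ac and 53.3 H3K4me1 peaks per 100 of the WT line, against 71.0 and 21.0 over all chromosomes. Broad H3K4me3 domains were counted as those of at least 4 kb in both lines. Of the 49 broad domains of that part with H3K27ac, 26 (53.1%) had more in the mutant line, against 36.9% of 1302 such domains of the genome. Among the 30 domains of the genome with H3K27ac that were at least 10 kb in both lines, 14 (46.7%) had more. The part that this region of the chromosome or the domain width has in the Hmga2 values was not tested.

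**Figure D4:**
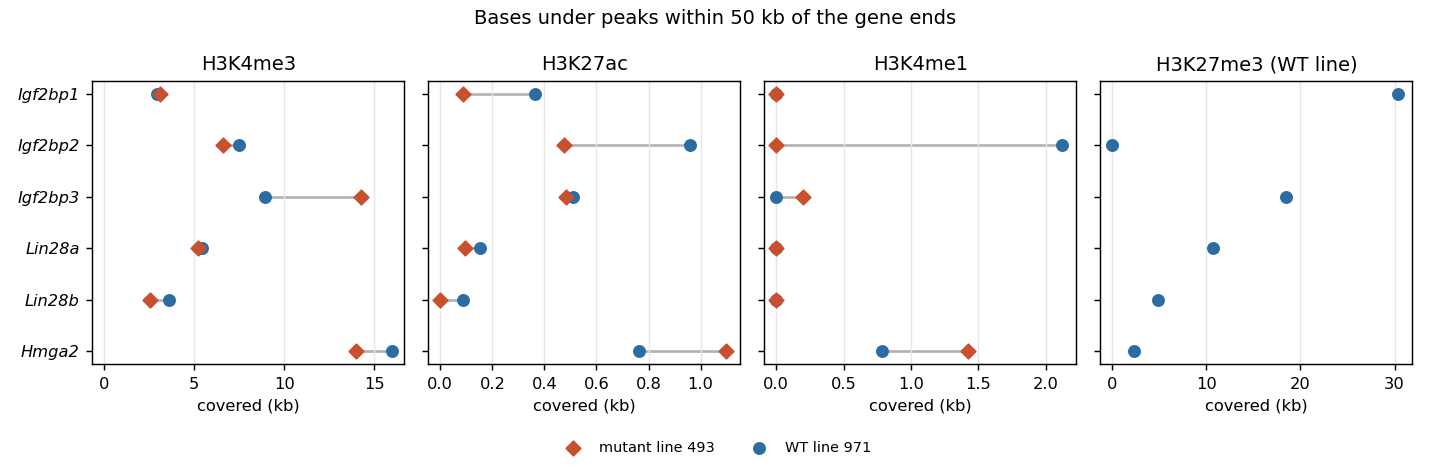
Covered length in kb within 50 kb of the gene ends for each member and mark, as blue circles for WT line 971 and orange diamonds for mutant line 493, 1 library each; H3K27me3 is shown for the WT line only. Igf2bp3 has the largest H3K4me3 difference (8.94 kb and 14.2 kb), and Hmga2 alone has more H3K27ac in the mutant line. Igf2bp1 has the most H3K27me3 (30.4 kb), part of it at B4galnt2 and Gip.

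Counted over the 6 genes, H3K4me3 in the 50 kb windows was larger in the mutant line at 2, Igf2bp1 and Igf2bp3, and smaller at 4, against 29.6% and 70.3% of all genes with H3K4me3 in their windows. Scaling both lists to the same total length turned Igf2bp2, Lin28a and Hmga2, so that 5 were then larger in the mutant line, as were 67.0% of all genes under the same scaling. In the more significant 50% of each list the count stayed at 2 but Igf2bp1 turned smaller (2.46 kb and 2.29 kb) and Igf2bp2 larger (6.33 kb and 6.57 kb). By a ratio of at least 1.5-fold, Igf2bp3 alone was called, where 4.22% of all genes were, and nothing is read from this since that gene was chosen for the mark and its ratio includes the Gpnmb peak. The median difference, mutant minus WT, was −0.57 kb for the members and −0.45 kb for all genes. Within 5 kb of the ends, 4 of the 6 had more H3K4me3 in the mutant line, which also held for 37.9% of all genes. In order of WT covered length the members ran Hmga2, Igf2bp3, Igf2bp2, Lin28a, Lin28b and Igf2bp1, and without replicates no spread tells neighbours in that order apart. Promoters of other genes set much of it: without peaks at their ends the order was Hmga2 (16.0 kb), Igf2bp2 (5.27 kb), Lin28b (2.501 kb), Igf2bp3 (1.74 kb), Igf2bp1 (0.472 kb) and Lin28a (0 kb). Of 6 members 5 had H3K4me3 at a gene end in both lines, as 55.0% of all genes did, and Lin28a in neither, as 41.9% did. None had it in 1 line alone, against 1.37% of genes in the WT and 1.68% in the mutant line alone.

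H3K27ac was larger in the mutant line at 1 of 6 members and smaller at 5, against 27.3% and 72.6% of all genes with H3K27ac. At least 1.5-fold less in the mutant line was found at 4 members, Igf2bp1, Igf2bp2, Lin28a and Lin28b, and at 56.7% of all genes. All of the Lin28a H3K27ac lay at Hmgn2, 0.248 kb of the 0.364 kb of WT H3K27ac around Igf2bp1 lay at Snf8, and Lin28b had a single WT peak of 88 bp. Without peaks at the ends of other genes Lin28a had 0 kb in both lines and Igf2bp1 0.116 kb (WT) and 0.089 kb (mutant). Neither then reached 1.5-fold. Igf2bp2 and Hmga2 had H3K27ac at a gene end in both lines and the other 4 in neither, compared with 12.6% and 64.4% of all genes, while 16.1% of genes had it in the WT line alone and 6.84% in the mutant line alone. H3K4me1 was called near 3 members. It was larger in the mutant line at Igf2bp3 and Hmga2 and absent from it at Igf2bp2, whereas 19.5% of all genes with H3K4me1 were larger and 80.5% smaller in the mutant line. At least 1.5-fold, which all 3 members reached, Igf2bp3 by a single mutant peak of 200 bp, held for 15.9% and 75.9%. At Hmga2 the order of H3K4me1 turned when the whole gene body was counted, and also in windows of 100 kb (1.48 kb in line 971, 1.42 kb in line 493 in both settings). No member had H3K4me1 at a gene end, like 94.0% of all genes, with 0.475% having it in both lines, 3.73% in the WT and 1.79% in the mutant line alone.

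WT H3K27me3 lay at a gene end of 4 members, Igf2bp1, Igf2bp3, Lin28a and Lin28b, and at 9.94% of all genes. Within 50 kb it was called at 5 of 6, Igf2bp2 being without, and at 42.4% of all genes. Of the 4, Igf2bp1, Igf2bp3 and Lin28b carried gene-end H3K4me3 in both lines as well. Over all genes this pairing was found at 1000 of the 2176 with WT H3K27me3 at an end. The same 1000 were 8.31% of the 12040 genes with gene-end H3K4me3 in both lines. None of the 6 had a region of higher H3K27me3 in the mutant line within 50 kb, which 5.77% of all genes had, and the nearest regions were 209 kb (Igf2bp3) to 2362 kb (Lin28a) away. Over all genes with H3K4me3 at an end in both lines, a 1.5-fold or larger H3K4me3 length in the mutant line within 5 kb was found at 13.7% of the 1000 with WT H3K27me3 at an end and at 1.78% of the 11040 without it. Of the 3 members among the former, Igf2bp1 had 1.70-fold more in the mutant line and Lin28b less (1.58 kb and 1.36 kb), and Igf2bp3, chosen for this mark, is not read against these shares. The shares were not matched for peak strength.

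**Figure D5:**
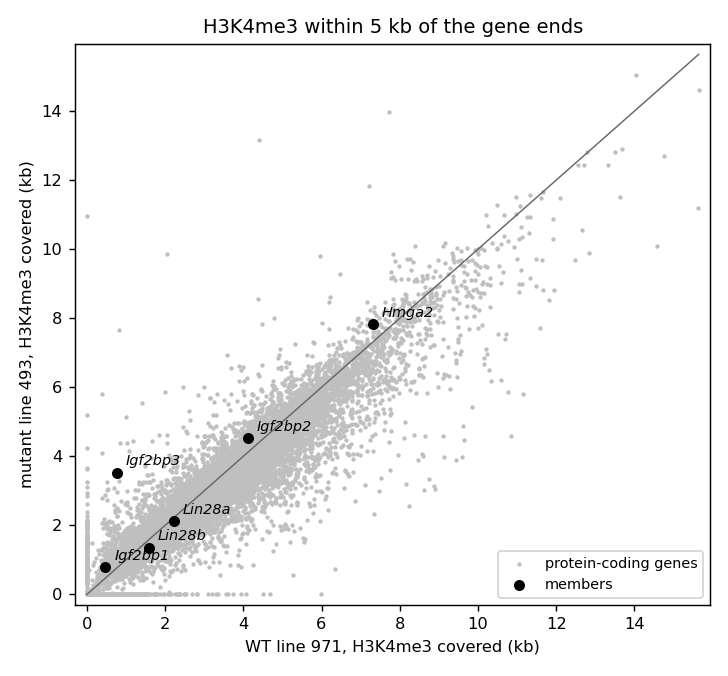
H3K4me3 covered length in kb within 5 kb of the gene ends in WT line 971 (x axis) and mutant line 493 (y axis), with each grey point a protein-coding gene and each black point a member; the line marks equal length. Igf2bp3 stands at 0.759 kb and 3.53 kb, above the line, and the other 5 members lie nearer to it.

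The let-7 microRNAs, which these genes are tied to, were read at their own loci. Mature sequences from RefSeq (GRCm38.p6) are shown with the seed, bases 2 to 8, in capitals, for let-7a, the family's reference member, and for the pair whose shared locus differed most.
let-7a-5p: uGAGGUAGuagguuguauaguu
let-7b-5p: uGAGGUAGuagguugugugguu
let-7c-5p: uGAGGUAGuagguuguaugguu

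All 8 let-7 5p names in the table share that seed, GAGGUAG. Of 11 let-7 hairpins, 10 had WT H3K4me3 within 10 kb and 7 had mutant H3K4me3. At all 10 the mutant line had less, and at 8 once both lists were scaled to the same total. Before scaling, 66.9% of all microRNA hairpins with H3K4me3 in that window had less in the mutant line. No scaled share of all hairpins is given here, so the count of 8 has no such comparison. The 10 are not separate observations, since Mirlet7a-1, Mirlet7d and Mirlet7f-1 share one locus and Mirlet7b and Mirlet7c-2 another. This group and its window were added after the values of the 6 genes were seen.

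At Mirlet7b and Mirlet7c-2 (chromosome 15) 6 WT H3K4me3 peaks, with scores from 58.2 to 275, covered 4.999 kb and 5.21 kb of the windows, and WT H3K4me1 covered 4.47 kb. The mutant line had neither mark there. Mirlet7a-2 (chromosome 9) had 2.39 kb of WT and 0 kb of mutant H3K4me3, and 2.84 kb and 0.436 kb of H3K4me1. Its H3K27ac went the other way, with 0.47 kb for line 493 against 0.204 kb for line 971. At Mirlet7c-2 H3K27ac covered 0.108 kb (WT) and 0.117 kb (mutant), and at Mirlet7b 0.108 kb and 0 kb. These 3 hairpins were those with H3K4me3 in the WT line alone, 3 of the 10 with the mark, against 9.27% of all microRNA hairpins with the mark in that window. Among the stronger 50% of each list their WT peaks were gone as well. Mirlet7i, on the same distal part of chromosome 10 as Hmga2, had 6.81 kb and 6.64 kb, with a score of 3100 in both lines. Mirlet7c-1 (chromosome 16), another hairpin named for let-7c, also had H3K4me3 in both lines, 7.24 kb (WT) and 6.02 kb (mutant), with a peak of score 3100 in each. No let-7 hairpin had WT H3K27me3 within 10 kb.

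Another 44 genes, in 4 lists (let-7 processing, let-7 targets, IGF2BP clients and other oncofetal genes), were read in the same way. H3K4me3 in the 50 kb windows was larger in the mutant line at 11 and smaller at 29, against 29.6% and 70.3% of all genes. The median difference was −0.56 kb. Once both lists were scaled to the same total, 27 of the 40 covered genes were larger, against 67.0% of all genes. A ratio of at least 1.5-fold was reached by 2 of the 40 covered genes in the mutant direction and 4 in the WT direction, against 4.22% and 10.6% of all genes. Of 11 genes for let-7 processing, 2 were larger in the mutant line and 8 smaller. These and the counts of the other lists are to be read beside the same 29.6% and 70.3%. Xpo5, which exports microRNA precursors from the nucleus, had 25.4 kb (WT) and 19.8 kb (mutant), Ago2, the slicing Argonaute, 13.4 kb and 10.2 kb, and Ago1 7.87 kb and 4.99 kb. Of 17 let-7 target genes, 4 were larger and 13 smaller, with Ccnd1, cyclin D1, at 20.3 kb and 17.1 kb and E2f5 at 12.3 kb and 9.23 kb. All 17 had H3K4me3 at a gene end in both lines.

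Of 10 genes whose messenger RNAs are IGF2BP clients, 3 were larger in the mutant line and 7 smaller. Cd44, a hyaluronan receptor gene, had 12.3 kb and 7.89 kb, and Actb, beta-actin, 14.4 kb and 10.5 kb. Among 8 other oncofetal genes, Sall4, a zinc-finger gene of pluripotent cells, was the only gene of the 4 lists whose gene-end H3K4me3 state differed. It had 0.509 kb in the WT line, with none at a gene end, and 2.86 kb in the mutant line. Igf2, the fetal growth factor, had 1.25 kb and 0 kb, and Peg10 4.84 kb and 3.88 kb. Of the 6 listed genes with WT H3K27me3 at an end and H3K4me3 in the window, 5 were larger in the mutant line (Trim71, Plagl1, Mycn, Mapk4 and Sall4, named after their values were seen) and Igf2 was not. Among the 4 members with WT H3K27me3 at an end, 2 were larger and 2 smaller. Over all genes these shares were 42.8% with WT H3K27me3 at an end and 27.9% without.

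The genes most like Igf2bp3 over all 8 lists, by the distance between log2(kb + 1) values, were Tnfaip8l1 (distance 0.503), Osbpl7 (0.568), Btf3 (0.608), Cnot1 (0.621) and Slc4a5 (0.624), out of 21876 genes ranked. Tnfaip8l1, on chromosome 17, had 11.5 kb of WT and 12.7 kb of mutant H3K4me3, and 16.2 kb of WT H3K27me3. Slc4a5 had 12.6 kb and 13.8 kb and 17.2 kb of WT H3K27me3. H3K4me3 covered 10.8 kb and 10.9 kb at Osbpl7 and 9.71 kb and 11.3 kb at Btf3, from WT to mutant. At Cnot1 it was smaller in the mutant line, 12.9 kb and 11.6 kb. All of these genes had WT H3K27me3 as well as H3K4me3 in the window.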

How the data were processed

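Histone marks were profiled in WT line 971 and mutant line 493 with 1 library each. The 4 input libraries are not analysed here. The 8 deposited peak lists were made per library on mm10, with MACS2, FastQC and MultiQC named in the submitters' processing notes. The aligner, tool versions, filters and read depth were not given in the sources used here. For the deposited H3K4me3 lists, the score is −10 times the log10 of a p value, in the older MACS layout. The other lists hold the authors' fold enrichment (a ratio) and −log10 p and q values, and their deposited score column was not used. File names give own input as control, and the WT H3K27me3 library for the mutant H3K27me3 list.

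Peaks on the 19 autosomes, X and Y were kept. Python 3.11.15 with pandas 2.3.3 summed the length under peaks within 50 kb of both gene ends of RefSeq GRCm38.p6 genes; a gene-end peak lay within 1 kb. The interval code was tested on simulated data. With 1 library a group no test was possible, and called means a stated fold or presence. Members and lists were chosen with earlier results of these data known. Named genes were the members, listed genes whose H3K4me3 state at an end differed or with the 3 largest H3K4me3 differences per list, the 5 nearest genes to Igf2bp3 by covered length, and neighbours whose ends hold peaks. Some genes that this rule names are not reported here. Alternatives changed window, gene-end distance, start site, threshold, list length and scaling.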

Additional observations from a re-analysis of the deposited data

How the results depend on the processing

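Of 67 recomputed values, 52 stayed within 1.5 times the reported value and 15 did not, and the Igf2bp3 H3K4me3 difference, the one signed value, stayed positive. Single members did turn in H3K4me3: Igf2bp2, Lin28a and Hmga2 to larger in the mutant line after scaling, Igf2bp2 and Hmga2 within 5 kb, Lin28a within 100 kb, and Igf2bp1 to smaller and Igf2bp2 to larger in the more significant 50% of each list. The RefSeq start alternative covered 5 members. No paired analysis was possible because there was 1 library per line and mark. The Igf2bp3 H3K4me3 difference of 5.29 kb became 1.90 kb within 20 kb, 2.77 kb within 5 kb and 2.19 kb without peaks at ends of other genes, each of which leaves the Gpnmb peak out of the sum. The number of members with more H3K4me3 in the mutant line went from 2 to 5 when lists were scaled to equal totals and to 4 within 5 kb. Those with more H3K27ac went from 1 to 2 within 20 kb, after scaling, and without peaks at ends of other genes. Those with more H3K4me1 went from 2 to 1 with the gene body and to 0 within 5 kb. Lists of equal length, for which only the WT list was cut, gave 2 members with gene-end H3K4me3 in the mutant line alone. Counting within 1 kb of a RefSeq start gave 1, Lin28b, in the WT line alone. For the genes of the 4 lists with more H3K4me3 in the mutant line, scaling changed 11 to 27, and it changed the share of all genes from 29.6% to 67.0%. The let-7 hairpins with H3K4me3 in the WT line alone changed from 3 to 1 within 20 kb and to 0 in the more significant 50% of each list.

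Scaling moved the median log2 ratio, mutant over WT, of all genes from −0.11 to 0.12 for H3K4me3, from −0.65 to −0.05 for H3K27ac and from −1.34 to 1.31 for H3K4me1, so counts of direction depend on it. The windows of 5 kb, the whole gene body, the peaks left out at other genes and the let-7 settings were chosen after seeing the data. Depth is unknown, and absence from a list means only that no peak passed the threshold of that list.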
